A study of Homo sapiens with 11 samples.

Results

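The S100 genes encode a family of small proteins that bind calcium, and 10 of them were followed here through the growth factor response of a mammary epithelial line: S100A2, S100A4, S100A6, S100A7, S100A8, S100A9, S100A10, S100A11, S100A14 and S100A16. They were chosen by name, as the rows of the deposited expression table whose Ensembl identifier carries one of these symbols, and all 10 were found among its 40460 genes. The RNA came from hTert-HME1, a single human mammary epithelial line made immortal with telomerase, at passage 6, transfected with RNAiMAX and grown in Mammary Epithelial Growth Medium. The groups were control siRNA (labelled control-2) with EGF (n = 3, replicates A, B and C), the same siRNA without EGF (n = 2, A and C), BRCA2 siRNA (labelled BRCA2-1) with EGF (n = 3) and BRCA2 siRNA without EGF (n = 3). EGF is the epidermal growth factor that such media normally supply. Total RNA was depleted of ribosomal RNA before sequencing. Each target was addressed by 1 siRNA sequence in 1 line, and the replicates are labelled biological without naming separate donors. The errors therefore concern cultures of this line, and each draws on the spread within all 4 groups, not only those compared.

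S100 proteins carry a pair of EF hands, the loop that holds a calcium ion, and mostly work as dimers that change shape on calcium and then grip partner proteins. S100A8 and S100A9 pair up as calprotectin, an abundant protein of neutrophils that keratinocytes also make in wounds and inflamed skin and that binds zinc and manganese as well as calcium. S100A10 is the unusual member that no longer responds to calcium and sits in a complex with annexin A2. In stratified epithelium S100A2 and S100A6 are typical of the basal layer, and S100A7, or psoriasin, of inflamed epidermis.

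The family lies in the epidermal differentiation complex of chromosome 1, among genes for the cornified layer of skin. In the RefSeq gene order S100A10 and S100A11 flank one side of the late envelope, small proline-rich and filaggrin-type genes, and the other 8 lie together on the other side. S100A9 and S100A8 are separated there by S100A12 alone among protein-coding genes. None of the 10 shares exon bases with another gene in the GENCODE 29 annotation. The promoter sequences of RefSeq on GRCh38.p14, short windows around each listed start, were available for 10 of 10 members. The table was built on hg19, so these positions serve only to show the sequence. Printed first are S100A8 and S100A9, the members that differed most with EGF. S100A6 and S100A11 follow, both called in the opposite direction under control siRNA. Under BRCA2 siRNA S100A6 was called so again and S100A11 was not. S100A16, called lower without EGF under both siRNAs, is not printed. Capitals mark TATAAA, the AP-1 type motif (TGA, any base, TCA), TTGCNNAA (the C/EBP type) and GGGCGG (the GC box), searched on both strands, where neighbouring matches may overlap.
S100A8, chr1:153391024-153391323, minus strand: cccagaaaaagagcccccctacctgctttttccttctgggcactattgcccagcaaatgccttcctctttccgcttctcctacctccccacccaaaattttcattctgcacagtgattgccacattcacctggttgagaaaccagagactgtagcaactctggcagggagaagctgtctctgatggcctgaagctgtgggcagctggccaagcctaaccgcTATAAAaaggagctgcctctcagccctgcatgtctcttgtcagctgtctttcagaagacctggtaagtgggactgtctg
S100A9, chr1:153357604-153357903, plus strand: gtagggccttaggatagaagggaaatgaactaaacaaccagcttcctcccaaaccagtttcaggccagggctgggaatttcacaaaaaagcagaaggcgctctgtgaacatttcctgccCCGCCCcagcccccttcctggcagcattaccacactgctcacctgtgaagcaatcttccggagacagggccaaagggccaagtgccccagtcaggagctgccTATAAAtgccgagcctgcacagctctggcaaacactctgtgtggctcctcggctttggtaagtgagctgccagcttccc
S100A6, chr1:153535942-153536241, minus strand: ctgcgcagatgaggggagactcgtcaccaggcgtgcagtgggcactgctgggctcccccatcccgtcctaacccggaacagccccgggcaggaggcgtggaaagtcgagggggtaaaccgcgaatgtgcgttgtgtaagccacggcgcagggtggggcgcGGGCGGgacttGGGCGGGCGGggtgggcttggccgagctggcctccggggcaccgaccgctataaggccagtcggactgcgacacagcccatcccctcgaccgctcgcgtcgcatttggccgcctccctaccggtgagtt
S100A11, chr1:152036955-152037254, minus strand: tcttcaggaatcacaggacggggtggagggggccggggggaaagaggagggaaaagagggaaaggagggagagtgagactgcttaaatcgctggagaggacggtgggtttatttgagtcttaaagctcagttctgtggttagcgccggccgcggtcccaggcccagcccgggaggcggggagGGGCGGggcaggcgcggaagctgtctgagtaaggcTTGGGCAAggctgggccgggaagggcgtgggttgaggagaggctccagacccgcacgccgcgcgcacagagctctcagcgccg

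In the printed windows of S100A8 and S100A9 a TATAAA match began at position -29, counted from the start as +1. The other listed windows of S100A8, around other starts, held TATAAA at -126 or not at all. S100A4 and S100A7 had a match at -31 and -28, so 4 of 10 members held the motif in a listed window, against 13.99% of 27305 genes. S100A6 had GGGCGG at -90, -79 and -75, the last pair overlapping, and S100A11 at -68. In all 5 members held GGGCGG, S100A9 among them, against 48.3% of genes. The AP-1 type motif was found in S100A2 alone of the 10, at -52 (9.37% of genes), and TTGCNNAA in S100A11 alone, at -33 (12.7% of genes). These matches describe letters in short windows and say nothing about whether a factor binds.

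Levels differed widely between members. On the log2 scale per kilobase of exon, averaged over the 4 group means, S100A6 was highest at 16.42 (lowest and highest library 16.12 and 16.84), followed by S100A2 at 14.47 and S100A10 at 13.11. S100A16 (12.51) and S100A11 (12.48) overlapped across libraries, as did S100A10 and S100A16 at the edges of their ranges. S100A9 at 10.46 and S100A8 at 10.25 came next and had the widest ranges, 8.72 to 11.99 and 8.40 to 11.99. S100A14 was at 8.66 and S100A4 at 6.85. S100A7 was near the bottom of the scale, with deposited values of 0.20 to 0.90 in all 11 libraries, and was left untested, since a gene had to reach 10 on the linear scale in 2 libraries. The transform behind the deposited values is not given in the sources used here, so distances between genes hold on this scale only. The step to kilobases takes the values as not yet adjusted for length, which is not stated either. Without that step the order of members was the same, but S100A16 (13.20) and S100A11 (11.73) lay further apart.

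Of 11 other S100 genes, 9 were in the table and S100A3 and S100A13 passed the filter, at 7.72 to 8.06 and 7.99 to 8.57. S100A12, the gene between S100A9 and S100A8, reached at most 3.41. The cells carried markers of basal mammary epithelium: KRT5 lay between 17.21 and 18.78, KRT14 between 16.30 and 17.85 and TP63 between 13.01 and 14.04. Of 4 luminal markers in the table, the keratin genes KRT8 (10.51 to 11.41) and KRT18 (10.94 to 11.98) were abundant, while KRT19 (1.25 to 1.72) and EPCAM (0.15 to 0.67) were below the filter. Their summed level, the log2 of the added linear values, was 11.99 to 12.60. The siRNA against BRCA2 left no lower BRCA2 level in its libraries: the difference with EGF was 0.05 ± 0.12 on the log2 scale, and without EGF it was 0.75 ± 0.13 higher (adjusted p = 0.00551). The latter went with low control libraries without EGF, at 11.44 (A) and 11.65 (C), where all others lay between 12.11 and 12.48. Under control siRNA BRCA2 fell by 0.82 ± 0.13 on EGF withdrawal (adjusted p = 0.000719). "BRCA2 siRNA" below therefore names a label. Errors after ± are moderated standard errors, and adjusted p values come from limma with Benjamini-Hochberg adjustment over 17945 tested genes. The fit carries a term for replicate A, so its differences can depart slightly from the plain difference of group means.

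**Figure D1:**
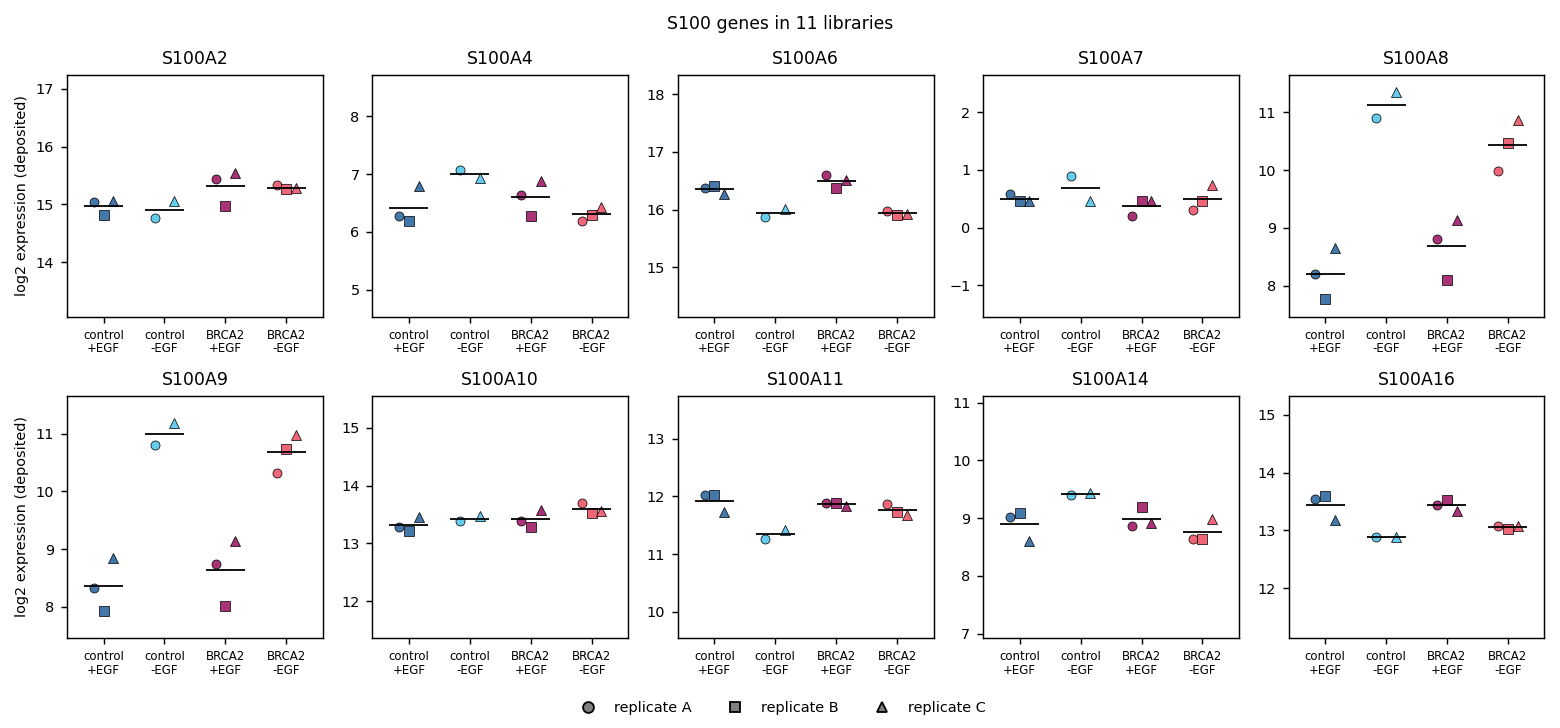
Deposited log2 expression (vertical axis, 4.2 log2 units in every panel) of the 10 S100 genes in the 4 groups (horizontal axis). Points are libraries, shaped by replicate letter, and bars are group means. S100A8 and S100A9 stand clear of the other members in how far the libraries without EGF lie above those with EGF.

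The comparison under control siRNA asks what losing EGF does to these genes when BRCA2 was not targeted. S100A8 and S100A9 rose together and by far the most of the 9 tested members, S100A14 rose slightly, and S100A6, S100A11 and S100A16, 3 of the 5 most abundant per kilobase, fell by less than 1 log2 unit. S100A2 and S100A10 did not pass the test. In all 3 of 9 tested members were called higher and 3 lower, at an adjusted p below 0.05, while 22.6% of all tested genes were called higher and 24.4% lower. The median of the 9 was 0.11 on the log2 scale and that of all tested genes -0.00.

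S100A8 stood at 8.20 (A), 7.76 (B) and 8.66 (C) with EGF and at 10.91 (A) and 11.35 (C) without. The 2 groups did not overlap, and every library without EGF was more than 2 log2 units above every library with it. The fitted rise was 7.77-fold (2.96 ± 0.34 in log2 units, n = 2 and 3, adjusted p = 0.000109). S100A9, its calprotectin partner, stood at 8.32 (A), 7.92 (B) and 8.84 (C) with EGF and at 10.80 (A) and 11.19 (C) without. It rose 6.34-fold (2.66 ± 0.34, adjusted p = 0.00018), again with no overlap. Within replicate A the differences were 2.70 for S100A8 and 2.47 for S100A9, and within replicate C 2.69 and 2.35. Leaving out any 1 library kept both calls, at 2.70 to 3.15 and 2.41 to 2.87.

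S100A8 and S100A9 are also genes of myeloid cells. Of 9 measured myeloid markers 2 passed the filter, CD14 and CSF1R, and CD14 moved with S100A8 and S100A9. The neutrophil genes MPO and FCGR3B stayed between -1.19 and 0.00, and the leukocyte antigen gene PTPRC between 2.33 and 3.10, in every library. The summed level of the list was 5.48 to 5.62 with EGF and 6.07 to 6.48 without, with no overlap. A single gene can weigh heavily in such a sum. Means with and without EGF were 3.31 and 5.31 for CD14, 4.08 and 4.26 for CSF1R, and 2.77 and 2.53 for PTPRC. CD14, which calprotectin-bearing monocytes carry, was the marker called, with a rise of 2.03 ± 0.32. Basal markers moved too, with a summed level of 18.77 to 18.91 with EGF and 19.69 to 19.87 without. Of these 9 markers 5 were called higher and 1 lower, against 22.6% and 24.4% of all tested genes. Their part in the S100A8 and S100A9 result was not tested. In bulk RNA a larger share of cells that express a gene and more of it per cell cannot be told apart.

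Among the members that fell, S100A6, whose protein binds the ubiquitin ligase adaptor CACYBP, was at 16.37 (A), 16.42 (B) and 16.28 (C) with EGF and 15.88 (A) and 16.01 (C) without. S100A16, a widely expressed epithelial member, was at 13.53 (A), 13.59 (B) and 13.18 (C) and at 12.88 (A) and 12.88 (C), and S100A11, a partner of annexin A1, at 12.03 (A), 12.02 (B) and 11.73 (C) and at 11.27 (A) and 11.42 (C). For each of the 3 the groups did not overlap, as was also so for S100A4, which was not called. With 2 libraries against 3, a lack of overlap is a weak mark. The share of all tested genes without overlap was not computed for any comparison. Replicate C with EGF lay nearest to the libraries without EGF in all 3.
S100A6 fell by 0.42 ± 0.10 on the log2 scale (adjusted p = 0.00701), S100A16 by 0.56 ± 0.12 (adjusted p = 0.00333) and S100A11 by 0.59 ± 0.11 (adjusted p = 0.00166). Within replicate C the differences were smaller than within replicate A, at -0.27 against -0.49 for S100A6, -0.31 against -0.65 for S100A16 and -0.31 against -0.76 for S100A11. The S100A6 call was lost without control replicate A without EGF (-0.32, adjusted p = 0.095) and with the groups compared alone (-0.41, adjusted p = 0.0823). Quantile normalization, which forces libraries to 1 distribution, gave -0.28 for S100A16 and -0.36 for S100A11, both still called.

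S100A14, an epithelial member linked to cell migration, was at 9.02 (A), 9.09 (B) and 8.60 (C) with EGF and 9.40 (A) and 9.44 (C) without, with no overlap. Its rise of 0.53 ± 0.18 (adjusted p = 0.0323) had the highest adjusted p of the 6 calls. The adjusted p became 0.145 without control replicate A without EGF, 0.136 without control replicate C without EGF and 0.0568 without control replicate C with EGF. It was also lost with no filter (0.0564) and with the groups compared alone (0.0973).
S100A4, known from motile fibroblasts and tumour cells, was at 6.28 (A), 6.19 (B) and 6.79 (C) with EGF and 7.06 (A) and 6.93 (C) without. The groups did not overlap, but the difference of 0.58 ± 0.23 missed the threshold (adjusted p = 0.0573). It passed without the term for replicate A (adjusted p = 0.0424), without BRCA2 siRNA replicate B with EGF (0.0298) and without control replicate C with EGF (0.0126). Quantile normalization gave 0.31 (adjusted p = 0.265), and leaving out control replicate A without EGF gave 0.47 (adjusted p = 0.278). Within replicate A it was 0.78 and within replicate C 0.14. Fibroblast markers, which S100A4 often accompanies, had a summed level of 11.26 to 11.57 with EGF and 13.43 to 13.53 without. Of 8 tested markers 7 were called higher, against 22.6% of all tested genes, while COL1A2 stayed at 1.31 to 1.84 in all libraries. Their part in the S100A4 values was not tested.

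S100A2, a target of p63 in basal cells, was at 15.03 (A), 14.82 (B) and 15.05 (C) with EGF and 14.76 (A) and 15.06 (C) without. The 95% interval of its difference ran from -0.43 to 0.30, and quantile normalization turned its sign (0.11). For S100A10, the annexin A2 partner, the values were 13.27 (A), 13.21 (B) and 13.46 (C) and 13.38 (A) and 13.47 (C), and the interval ran from -0.14 to 0.37. Changes of 2-fold lie outside both intervals. S100A10 alone passed under quantile normalization (0.39, adjusted p = 0.0446).

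**Figure D2:**
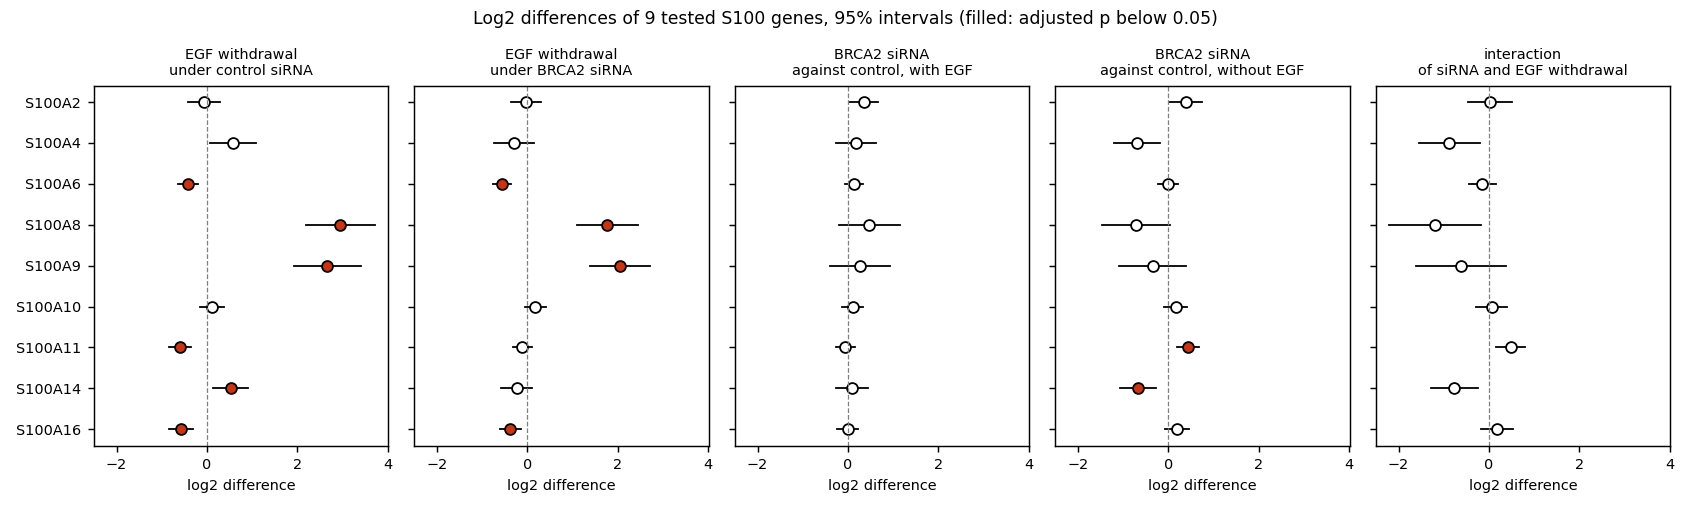
Fitted log2 differences (horizontal axis) of the 9 tested S100 genes (vertical axis) in 5 comparisons. Circles are estimates, filled where the adjusted p was below 0.05, and lines are 95% intervals. S100A8 and S100A9 lie far to the right in both withdrawal panels, and no circle is filled with EGF present or in the interaction.

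The same withdrawal under BRCA2 siRNA asks whether the response is there in those libraries as well. S100A8 and S100A9 rose and S100A6 and S100A16 fell, while S100A11 and S100A14, which were called under control siRNA, did not pass. That made 2 of 9 members higher and 2 lower, against 10.7% and 11.2% of all tested genes. The 6 libraries of this comparison are separate from the 5 of the control siRNA comparison, but both share the fit's estimate of the spread and its replicate A term. With EGF, deviations from group means also correlated across siRNAs at 0.70 for B and 0.70 for C. The 2 comparisons are therefore not independent. The members' median was -0.11 and that of all tested genes 0.00.

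S100A8 was at 8.81 (A), 8.09 (B) and 9.13 (C) with EGF and 9.99 (A), 10.48 (B) and 10.86 (C) without. It rose 3.40-fold (1.76 ± 0.30, n = 3 and 3, adjusted p = 0.00451). S100A9 went from 8.74 (A), 8.01 (B) and 9.14 (C) with EGF to 10.32 (A), 10.73 (B) and 10.98 (C) without, a rise of 4.13-fold (2.04 ± 0.30, adjusted p = 0.00222). Neither gene's groups overlapped, and replicate B had the lowest values with EGF under both siRNAs. Within replicates A, B and C the differences were 1.18, 2.38 and 1.73 for S100A8 and 1.58, 2.72 and 1.84 for S100A9. With only replicates B and C, the adjusted p values were 0.094 and 0.0872, at differences of 2.06 and 2.28. The summed myeloid markers were 5.26 to 5.63 with EGF and 5.76 to 5.93 without, again with no overlap, and neither tested marker was called. Basal markers went from 18.87 to 18.95 with EGF to 19.34 to 19.55 without. Of these 9 markers 4 were called higher and 1 lower, against 10.7% and 11.2% of all tested genes. Fibroblast markers went from 11.42 to 11.52 to 12.41 to 13.12, with 4 of 8 higher (10.7% of all tested genes). The part of these lists in the S100A8 and S100A9 result was not tested.

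S100A6 was at 16.60 (A), 16.38 (B) and 16.52 (C) with EGF and 15.97 (A), 15.91 (B) and 15.93 (C) without, and fell by 0.56 ± 0.09 (adjusted p = 0.0032). Its 3 values without EGF lay close together, under all 3 with EGF. S100A16 was at 13.43 (A), 13.53 (B) and 13.34 (C) and 13.07 (A), 13.03 (B) and 13.07 (C), again without overlap, a fall of 0.38 ± 0.11 (adjusted p = 0.0298).
The S100A16 call was lost without BRCA2 siRNA replicate A or B with EGF (adjusted p = 0.0868 and 0.0789) or A, B or C without EGF (0.099, 0.0911 and 0.0812). It was also lost under quantile normalization (-0.22, adjusted p = 0.087) and without the mean-variance trend (0.054). S100A11 was at 11.88 (A), 11.89 (B) and 11.84 (C) with EGF and 11.87 (A), 11.73 (B) and 11.69 (C) without, overlapping ranges, with an interval of -0.33 to 0.10. S100A14 differed by -0.24 ± 0.16 and S100A4 by -0.30 ± 0.20, both downward in these libraries and neither called. The fibroblast markers, set beside S100A4 under control siRNA, went up here, from 11.42 to 11.52 with EGF to 12.41 to 13.12 without. Their part in the S100A4 values was not tested here either.

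**Figure D3:**
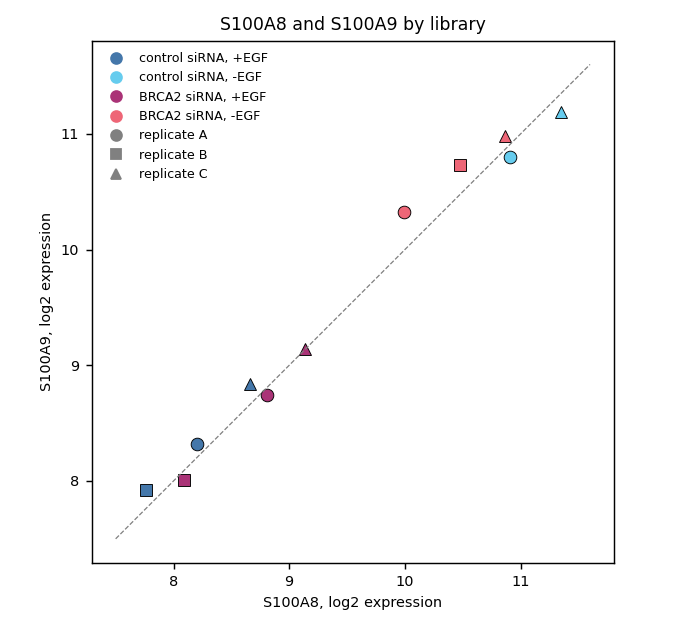
S100A9 (vertical axis) against S100A8 (horizontal axis), both as deposited log2 expression, in 11 libraries coloured by group and shaped by replicate. The dashed line marks equal values. The 5 libraries without EGF start at 9.99 for S100A8 and 10.32 for S100A9, above the highest of the 6 with EGF at 9.13 and 9.14.

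S100A8 and S100A9 moved closely together from library to library, as the plot of one against the other shows. Their log2 difference, S100A9 minus S100A8, stayed between -0.16 and 0.33 while each gene ranged over more than 3 log2 units. It was 0.12 (A), 0.16 (B) and 0.18 (C) in control libraries with EGF and -0.11 (A) and -0.16 (C) in those without. In the BRCA2 siRNA libraries the order was the opposite, -0.07 (A), -0.08 (B) and 0.01 (C) with EGF and 0.33 (A), 0.25 (B) and 0.12 (C) without. These offsets were noticed in the data and are given with no test.

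With EGF present, the BRCA2 siRNA comparison called none of the 9 members by limma, and 0% of all tested genes in either direction. At an unadjusted p below 0.05 there was 1 member, S100A2, against 2.08% of all genes. S100A2 was at 15.03 (A), 14.82 (B) and 15.05 (C) with control siRNA and 15.44 (A), 14.98 (B) and 15.54 (C) with BRCA2 siRNA, overlapping groups, and differed by 0.35 ± 0.15 (unadjusted p = 0.0361, adjusted p = 1.00). For S100A8 the interval was -0.20 to 1.15 and for S100A9 -0.39 to 0.93. The remaining members had tighter intervals, such as -0.24 to 0.23 for S100A16 and -0.27 to 0.16 for S100A11.

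Without EGF, the libraries with BRCA2 siRNA differed from control in S100A11, which was higher, and S100A14, which was lower. Thus 1 of 9 members was called higher and 1 lower, against 9.63% and 7.97% of all tested genes. This comparison uses the same libraries without EGF as the withdrawal comparisons and has no independent control. S100A11 was at 11.87 (A), 11.73 (B) and 11.69 (C) with BRCA2 siRNA against 11.27 (A) and 11.42 (C) with control siRNA, a difference of 0.42 ± 0.11 or 1.34-fold (n = 3 and 2, adjusted p = 0.025). S100A14 was at 8.63 (A), 8.64 (B) and 8.99 (C) against 9.40 (A) and 9.44 (C), a difference of -0.68 ± 0.18 (adjusted p = 0.0266). In both genes the groups did not overlap, and the BRCA2 siRNA values lay on the side of the libraries with EGF.
Both calls were lost when single libraries without EGF were left out. The adjusted p values of S100A11 and S100A14 were 0.272 and 0.197 without control replicate A, 0.13 and 0.127 without BRCA2 siRNA replicate A, and 0.0751 and 0.0929 without BRCA2 siRNA replicate B. That of S100A14 was 0.13 without control replicate C.

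S100A4 also lay apart without EGF, at 6.18 (A), 6.29 (B) and 6.43 (C) with BRCA2 siRNA against 7.06 (A) and 6.93 (C) with control, but missed the threshold (-0.70 ± 0.23, adjusted p = 0.0591). It passed without the term for replicate A (adjusted p = 0.041), with the groups compared alone (0.00943), and without control replicate B (0.0474) or C (0.0299) or BRCA2 siRNA replicate B (0.0307) with EGF. Over the libraries left out it ran from -0.84 to -0.59, with an adjusted p of up to 0.343. S100A2 (0.38 ± 0.16, adjusted p = 0.132) passed with the groups compared alone (0.36, adjusted p = 0.0072) and without BRCA2 siRNA replicate B with EGF (0.0419). It was 0.19 without control replicate A without EGF (adjusted p = 0.665) and 0.60 without control replicate C without EGF (adjusted p = 0.112). S100A8 was lower with BRCA2 siRNA by value, at 9.99 (A), 10.48 (B) and 10.86 (C) against 10.91 (A) and 11.35 (C), and its difference of -0.72 ± 0.34 did not pass (adjusted p = 0.172). It did pass with the groups compared alone (-0.78, adjusted p = 0.000489), as did S100A9 (-0.40, adjusted p = 0.00499) and S100A16 (0.18, adjusted p = 0.034), whose differences over all groups were -0.35 ± 0.34 and 0.18 ± 0.12.

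The interaction asks directly whether withdrawal acted differently under the 2 siRNAs. It called none of the 9 members, against 1.15% of all tested genes in the positive direction and 1.63% in the negative. At an unadjusted p below 0.05 it gave 4 members, against 20.2% of all genes. They were S100A8 at -1.19 ± 0.46 (adjusted p = 0.183), S100A4 at -0.88 ± 0.31 (0.145), S100A14 at -0.76 ± 0.24 (0.112) and S100A11 at 0.48 ± 0.15 (0.109). S100A9 was at -0.62 ± 0.45 (adjusted p = 0.482). The calls that S100A11 and S100A14 had under only 1 siRNA are therefore not shown to differ between siRNAs. S100A8 passed without BRCA2 siRNA replicate B with EGF (-1.57, adjusted p = 0.0416), and S100A11 without control replicate C with EGF (0.57, adjusted p = 0.0325).

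S100 dimers bind annexins and other proteins and signal through several receptors, and the RNA of 14 such genes was tested. Under control siRNA 4 rose, 5 fell and 5 did not pass, where 22.6% of all tested genes rose and 24.4% fell. Under BRCA2 siRNA 2 rose, 5 fell and 7 did not pass, against 10.7% and 11.2%. The median differences were 0.01 and 0.08 on the log2 scale. ANXA6, an annexin bound by S100A6, fell by 1.34 ± 0.12 under control siRNA and by 0.81 under BRCA2 siRNA. ANXA2, the partner of S100A10, fell by 0.94 and by 0.63, while S100A10 itself was not called in either. CACYBP fell by 0.98 and 0.41. ANXA11 rose by 0.74 and 0.33. Among receptors, CD36, a fatty acid scavenger receptor that binds calprotectin with its lipid cargo, rose by 2.08 under control siRNA (adjusted p = 0.000422) and differed by 0.43 under BRCA2 siRNA (adjusted p = 0.27). Its interaction missed the threshold (adjusted p = 0.0612). Other receptors went both ways. ALCAM fell by 0.65 under control siRNA (adjusted p = 0.000213) and by 0.59 under BRCA2 siRNA (adjusted p = 0.00136). AGER rose by 1.03 under control siRNA (adjusted p = 0.00427) and was not called under BRCA2 siRNA. TLR4 was not called under control siRNA and fell by 0.86 under BRCA2 siRNA (adjusted p = 0.0385).

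The neighbouring genes of the epidermal differentiation complex were mostly below the filter, with 9 of 25 in the table tested. Under control siRNA 3 were called higher and 3 lower (22.6% and 24.4% of all tested genes), and under BRCA2 siRNA 4 higher and 1 lower (10.7% and 11.2%), with median differences of 0.13 and 0.64. One of those called higher, SPRR1B, a cornified envelope precursor, passed the filter only through libraries without EGF. It was at 2.16 to 2.37 with EGF, at 5.72 (A) and 5.79 (C) in control libraries without it and at 2.35 (A), 3.45 (B) and 4.21 (C) in the BRCA2 siRNA ones, so its calls partly follow from how it entered the tests. Filaggrin, FLG, rose by 2.37 and 1.33 and its relative HRNR by 2.58 and 1.08. So S100A8 and S100A9 rose alongside some neighbours, while LCE1F fell under both siRNAs (-1.07 and -0.63). The late envelope gene LCE1C went from -0.92 under control siRNA to 0.75 under BRCA2 siRNA (interaction adjusted p = 0.0321).

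Of 12 tested transcription factors known from epidermal or S100 gene expression, 4 rose and 2 fell under control siRNA (22.6% and 24.4% of all tested genes), and 3 rose and 0 fell under BRCA2 siRNA (10.7% and 11.2%). The median differences of the 12 were 0.43 and 0.40. MAF and GRHL3, factors of late keratinocyte differentiation, rose by 2.70 and 2.86 under control siRNA and by 1.33 and 0.72 under BRCA2 siRNA. The interaction of both was called (adjusted p = 0.031 and 0.0198). FOSL1, an AP-1 subunit, fell by 1.68 under control siRNA and differed by -0.34 under BRCA2 siRNA. TP63 and STAT3 were called in neither comparison.

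**Figure D4:**
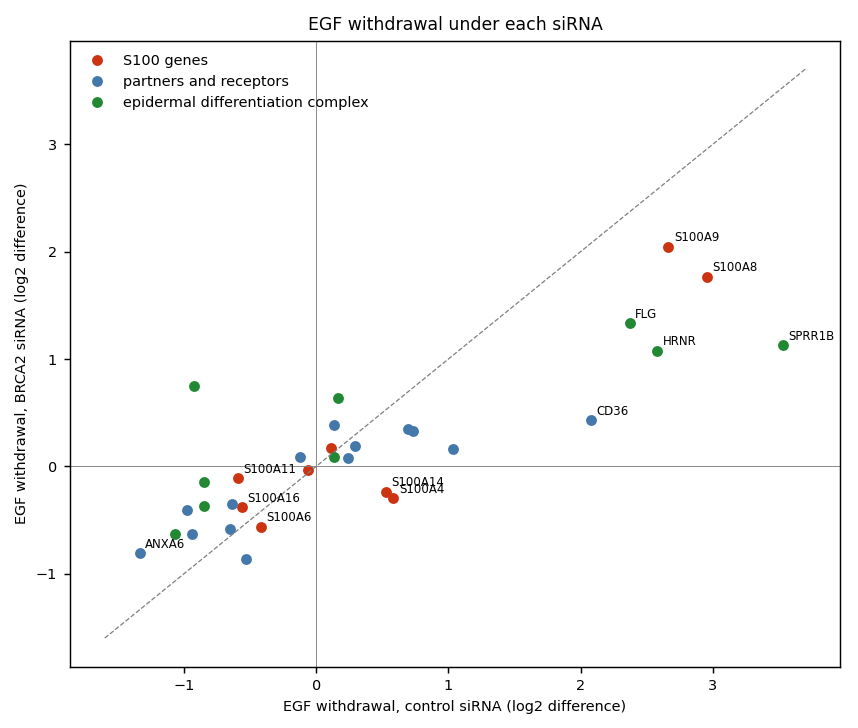
Log2 difference on EGF withdrawal under BRCA2 siRNA (vertical axis) against that under control siRNA (horizontal axis) for the tested S100 genes, their partners and receptors, and neighbouring genes of the epidermal differentiation complex. The dashed line marks equal differences. S100A8 at 2.96 and 1.76, S100A9 at 2.66 and 2.04 and FLG at 2.37 and 1.33 lie to the upper right, below the line. SPRR1B, also there, was below the filter in every library with EGF.

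The genes with group profiles most like S100A8, by root mean square difference of the 4 centred group means, were COL5A3 (0.12 log2 units), RASD2 (0.12), IGSF3 (0.13), CD86 (0.14) and FAT2 (0.15). Those most like S100A9 were WSCD2 (0.09), DLL1 (0.10), IGSF3 (0.11), FAT2 (0.12) and LINC00968 (0.13). IGSF3, a transmembrane protein with immunoglobulin domains, and FAT2, an epithelial cadherin, were on both lists. FAT2 averaged 12.33 and 15.18 under control siRNA with and without EGF, and 12.49 and 14.65 under BRCA2 siRNA. These likenesses rest on 4 group means and describe the pattern only.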

How the data were processed

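Total RNA of 11 libraries was depleted with RiboZero and prepared with Script-seq v2, per the labels' protocols. The authors deposited 1 table of normalized log2 values for 40460 Ensembl genes, from -2.94 to 20.6. The submitters' processing notes list hg19, DESeq2, limma and TopHat2 2.0.11, with no role for any. Counter, annotation and transform are not stated there, and depth is unknown, so no interval based on counts is given. In every gene the means of replicate A (4 libraries) and of replicates B and C (7 libraries) were equal to within 7.18e-09, so the values had been centred for replicate A without regard to the groups.

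Symbols were matched to identifiers by a gene name table (37585 genes matched). A gene entered the tests if its linear value was 10 or more in 2 libraries, a filter that 17945 genes and 9 of 10 members passed. The model, fitted to all libraries in limma 3.58.1 (R 4.3.3), had the 4 groups and a replicate A term that absorbs the centring. Variances were moderated by empirical Bayes along a trend in mean level. It left 6 residual degrees of freedom. Tests were two-sided, with Benjamini-Hochberg adjustment within a comparison and a threshold of 0.05. The script was tested on simulated data. Letters were not used as pairs, since not every same-letter correlation of deviations from group means was above 0.1. The centring enters the correlations within A, which ran from -0.37 to -0.12, so this rule cannot settle whether letters pair the libraries. All 10 members are named, with up to 4 genes of each context list by smallest p in a comparison, and the 5 genes most like S100A8 and S100A9. COL1A2, TP63, STAT3, AGER and TLR4 are named besides, picked once their values were known. A gene of the transcription factor list is not reported here by name. Members and lists were chosen with earlier results of these data known. The alternatives were no term for replicate A, a full replicate block, replicates B and C only, quantile normalization, 2 other filters, no trend, the groups compared alone, and leaving out each library. Promoter sequences and gene order come from RefSeq on GRCh38.p14 and exon lengths from GENCODE 29.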

Additional observations from a re-analysis of the deposited data

How the results depend on the processing

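Over all alternatives, 797 of 846 recomputed S100 results stayed on their side of the threshold, 31 calls were lost, 18 were gained and 0 called values changed sign, while 30 uncalled ones did. The rises of S100A8 and S100A9 under control siRNA were called in every alternative, and those under BRCA2 siRNA in all but the one limited to replicates B and C. With those replicates only, which leaves 1 library in the control group without EGF and assumes that it varies like the others, 2 members were called on withdrawal under control siRNA (6 in the report), 0 under BRCA2 siRNA (4) and 0 between siRNAs without EGF (2). Over all genes that setting gave 2074, 47, 0 and, for the interaction, 0 calls, and 70.2% of the 47 were higher. With the groups compared alone, 7 members were called between siRNAs without EGF, and 6553 genes there and 5577 on withdrawal under control siRNA. The causes were not tested. The full replicate block gave 4 members between siRNAs without EGF, adding S100A2 (0.46, adjusted p = 0.0213) and S100A4 (-0.60, adjusted p = 0.0418), and 930 genes in the interaction, and changed no other member's call. Whether letters pair the libraries is unsettled. With EGF, same-letter deviations correlated across siRNAs at 0.70 for B and 0.70 for C but at -0.12 for A, whose centring enters the value, and the other same-letter pairs ran from -0.37 to 0.04. Leaving out 1 library gave 4 to 7 members on withdrawal under control siRNA, 0 to 4 between siRNAs without EGF and 0 to 1 in the interaction. Without control replicate A without EGF, 4724 genes were called on withdrawal under control siRNA, 164 between siRNAs without EGF (31.7% higher, against 54.7%) and 0 in the interaction. The interaction had 271 calls without the trend, 25.5% of them positive against 41.4%, and 1032 without control replicate C with EGF. With EGF, the siRNA comparison had 1 called gene without the replicate A term, without the filter or without the trend. Depth is unknown, and 2 control libraries without EGF limit every comparison that uses them.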
